A study of Mus musculus with 12 samples.

Results

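Phase II conjugating enzymes, the enzymes that attach a polar group to a drug, hormone, bile acid or dietary compound so that it can be excreted, were followed in enteroids grown from the mouse jejunum. The genes were taken by symbol: UDP-glucuronosyltransferases (Ugt1, Ugt2, Ugt3), soluble glutathione S-transferases (Gsta, Gstm, Gsto, Gstp, Gstt, Gstk, Gstz), microsomal glutathione S-transferases (Mgst), sulfotransferases (Sult) and N-acetyltransferases (Nat1, Nat2), with pseudogenes left out. No measured value entered this rule, but it was chosen with earlier results of these data known. Of the 18929 genes listed in either count table, 46 met this rule. They were 9 genes of the Ugt1a locus (UGT1), 7 genes of the Ugt2 family (UGT2), 20 soluble transferases (soluble GST), 3 microsomal transferases (MGST), 6 sulfotransferases (SULT) and Nat2 (NAT).

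Enteroids are closed epithelial structures that crypts form in Matrigel, and they hold stem cells and the differentiated lineages of the epithelium without stroma. RNA-seq was done on 4 control libraries, 4 Hdac1-deficient libraries and 4 Hdac2-deficient libraries, all collected after 5 days in culture. The mutant mice carried the villin-Cre transgene, which drives Cre recombinase in intestinal epithelial cells. They also had floxed alleles of Hdac1 or of Hdac2, which encode closely related class I histone deacetylases. The study calls the control mice villin-Cre control in its Results and wild-type in its Methods, so their Cre status is not settled here. The crosses were on a mixed C57BL/6 J, 129SV and CD1 background. The crypts of each genotype were said to come from 1 mouse, and nothing states that libraries of a group came from separate mice. The p-values below therefore measure the spread between these samples, which may be technical, and genotype cannot be told apart from the mouse or culture.

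Total counts ran from 20693200 to 30658628 per library, and levels are given as CPM, the counts of a gene scaled to a common library size. A count of 3, taken as the detection floor, was worth 0.0972 to 0.145 CPM. Hdac1 transcripts were at 90.5 ± 2.87 CPM (SD, n = 4) in control enteroids and at 4.23 ± 0.841 CPM (SD, n = 4) in Hdac1-deficient enteroids. Hdac2 transcripts were at 137 ± 4.39 CPM (SD, n = 4) in control enteroids and at 75.9 ± 2.84 CPM (SD, n = 4) in Hdac2-deficient enteroids, a log2 fold change of -0.84. Which exons were deleted is not stated in the sources used here, so counts on the remaining exons may be included. The study itself reported each deletion in its enteroids from RT-PCR, Western blot and immunofluorescence. All 15 enterocyte markers looked at (Alpi, Lct, Sis, Fabp1 and others) passed the test as higher in both mutants, where 32.7% of all genes tested did so in the Hdac1-deficient group and 31.4% in the Hdac2-deficient group, with median log2 fold changes of 0.95 in the Hdac1-deficient group and 0.73 in the Hdac2-deficient group. Their summed level was 11918 to 12552 CPM in control, 22357 to 25859 CPM in the Hdac1-deficient group and 18891 to 21090 CPM in the Hdac2-deficient group. The 9 stem and proliferation markers summed to 4523 to 4656, 2854 to 3244 and 2525 to 2710 CPM in the same order. The part of these lineage markers in the changes of the conjugating enzymes was not tested, and in bulk RNA fewer cells of a type and less RNA per cell cannot be told apart.

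Each family uses an activated donor. UDP-glucuronosyltransferases sit in the membrane of the endoplasmic reticulum and transfer glucuronic acid from UDP-glucuronic acid. Glutathione S-transferases join glutathione to electrophiles such as products of lipid peroxidation, sulfotransferases take sulphate from PAPS, and N-acetyltransferases take an acetyl group from acetyl-CoA. The small intestinal epithelium, above all the villus enterocyte, is a main site of this first-pass metabolism, and many of the genes are known targets of the xenobiotic receptors AHR, PXR (Nr1i2) and CAR (Nr1i3), of NRF2 (Nfe2l2) and of the nuclear receptor HNF4 (Hnf4a).

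Several members lie side by side as copies of one another, and the results turn on copies that parted in level. Sequence before the start of 10 such genes is shown so that neighbours can be compared. It comes from the RefSeq promoter table on GRCm38.p6, which held a window for 41 of the 46 members. Each stretch is the 200 bases, or 177 for Gstp1, that end just before the RefSeq start, or before the first base of a GENCODE exon where one reaches upstream of it. RefSeq and GENCODE starts differ for some genes, and the stretches of Gsta2 and Gstp2 lie inside the longest span that GENCODE gives these genes. All are written 5′ to 3′ on the strand of the gene. Capitals mark a match to a GC box, GGGCGG, on either strand. Matches outside the printed stretches are not shown. The window of Gstp1 also holds a GC box, in the 73 bases before its RefSeq start that are left out here. The absence of capitals in the stretch of Gstp1 is therefore no difference in presence of the motif from Gstp2.
Gsta1, chr9:78230456-78230655, plus strand: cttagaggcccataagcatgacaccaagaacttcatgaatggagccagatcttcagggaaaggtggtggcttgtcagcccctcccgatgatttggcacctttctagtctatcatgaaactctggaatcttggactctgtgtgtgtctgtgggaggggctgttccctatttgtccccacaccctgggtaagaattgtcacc
Gsta2, chr9:78347169-78347368, minus strand: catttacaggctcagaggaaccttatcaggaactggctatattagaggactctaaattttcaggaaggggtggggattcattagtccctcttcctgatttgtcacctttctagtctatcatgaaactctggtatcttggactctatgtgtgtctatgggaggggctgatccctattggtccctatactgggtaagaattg
Gstp1, chr19:4037986-4038162, minus strand: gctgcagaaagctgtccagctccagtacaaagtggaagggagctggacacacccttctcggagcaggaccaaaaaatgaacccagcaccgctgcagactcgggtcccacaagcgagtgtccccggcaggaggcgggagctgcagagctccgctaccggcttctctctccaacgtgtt
Gstp2, chr19:4042264-4042463, minus strand: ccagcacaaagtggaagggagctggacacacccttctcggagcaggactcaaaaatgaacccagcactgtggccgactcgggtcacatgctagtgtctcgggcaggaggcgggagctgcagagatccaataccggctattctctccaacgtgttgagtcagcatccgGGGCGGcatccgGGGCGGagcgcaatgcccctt
Ugt1a9, chr1:88070579-88070778, plus strand: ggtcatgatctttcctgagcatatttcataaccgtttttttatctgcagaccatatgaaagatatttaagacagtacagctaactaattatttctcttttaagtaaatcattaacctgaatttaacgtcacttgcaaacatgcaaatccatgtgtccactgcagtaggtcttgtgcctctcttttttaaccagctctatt
Ugt1a6a, chr1:88134609-88134808, plus strand: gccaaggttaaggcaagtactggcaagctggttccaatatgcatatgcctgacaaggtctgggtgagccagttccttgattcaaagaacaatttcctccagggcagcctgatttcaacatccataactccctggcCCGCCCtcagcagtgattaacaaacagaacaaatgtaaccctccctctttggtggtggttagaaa
Ugt1a1, chr1:88211759-88211958, plus strand: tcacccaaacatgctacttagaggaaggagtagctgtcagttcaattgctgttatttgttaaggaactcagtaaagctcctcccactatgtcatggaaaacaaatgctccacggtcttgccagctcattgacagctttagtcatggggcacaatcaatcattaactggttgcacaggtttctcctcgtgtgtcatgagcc
Ugt2b36, chr5:87092556-87092755, minus strand: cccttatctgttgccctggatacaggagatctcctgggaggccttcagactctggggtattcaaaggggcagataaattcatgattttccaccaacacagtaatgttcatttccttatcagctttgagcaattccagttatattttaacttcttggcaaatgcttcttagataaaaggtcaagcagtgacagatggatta
Ugt2b5, chr5:87140341-87140540, minus strand: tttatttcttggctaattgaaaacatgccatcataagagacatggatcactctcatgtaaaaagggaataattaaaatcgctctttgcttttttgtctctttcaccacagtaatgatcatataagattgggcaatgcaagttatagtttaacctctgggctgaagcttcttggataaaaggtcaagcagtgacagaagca
Ugt2b38, chr5:87424204-87424403, minus strand: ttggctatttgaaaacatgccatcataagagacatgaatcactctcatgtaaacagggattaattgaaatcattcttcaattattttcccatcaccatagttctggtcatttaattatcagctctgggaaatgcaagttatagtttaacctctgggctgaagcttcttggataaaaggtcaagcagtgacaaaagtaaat

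Over the full 250 bases before the RefSeq start, Gstp1 and Gstp2 were identical at 208 positions (83.2%), Ugt2b5 and Ugt2b38 at 212 (84.8%), and Gsta1 and Gsta2 at 190 (76.0%). Ugt1a9 and Ugt1a1, which start at separate first exons of a single locus, were identical at 151 (60.4%), and Ugt2b36 and Ugt2b38 at 166 (66.4%). The core of the antioxidant response element bound by NRF2, TGACNNNGC, stood in 4 of the 52 windows of members (7.7%), those of Gsta3, Gstm5, Gstm7 and Mgst1, and in 10.2% of the 32851 windows of all genes. The core of the xenobiotic response element bound by AHR, GCGTG, was found in 11 windows of members (21.2%) and in 28.2% of all windows. The GC box was found in 15 windows of members (28.8%) and in 32.7% of all windows. Both strands were searched, and matches of different motifs could overlap. GENCODE exons covered 250, 199 and 211 of the 250 bases in the windows of Gstm5, Gstm7 and Mgst1 that matched TGACNNNGC. In the windows of Gstp1 and Gstp2 they covered 73 and 42 bases. These windows are thus in part annotated exon. The shares are descriptions of the windows, with no binding measured.

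In Hdac1-deficient against control enteroids, 39 of the 46 members had enough counts to be tested. A gene was called when its adjusted p was at most 0.05 and its fold change above 2. Gstp2, Mgst2, Sult2b1, Ugt1a6b, Ugt1a9 and Ugt2b36 were called higher, 6 members or 15.4% of those tested, where 6.87% of all genes tested were called higher. None of the members tested was called lower with edgeR, and none was with an unadjusted p at most 0.05 beyond that fold, while 3.71% of all genes were called lower. DESeq2 called 1 member lower, Gsto2, which had 4 to 20 counts per library and did not pass the filter of the edgeR test. At any size of change, 19 members passed the test as higher and 12 as lower, beside 32.7% and 31.9% of all genes, and 8 did not pass. The median log2 fold change of the members was 0.06, beside -0.00397 for all genes tested, and their range -0.83 to 1.73.

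In Hdac2-deficient against control enteroids, 40 members were tested. Sult2b1, Ugt1a6b and Ugt2b38 were called higher, which is 3 members or 7.5%, beside 5.45% of all genes. Gsta1 was called lower, which is 1 member or 2.5%, beside 2.84% of all genes. Both shares were close to those of all genes. At any size of change, 24 members were higher and 7 lower, beside 31.4% and 30.9% of all genes, and 9 did not pass. Their median was 0.27, beside -0.00356 for all genes, and their range -1.21 to 1.47. The comparisons of the 2 mutants with control used the same 4 control libraries, so their values are set side by side for each gene below, and the mutants were also tested directly against each other.

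Tested directly, 41 members could be compared between the mutants. Gsta1, Gstp2 and Ugt1a9 were called higher in Hdac1-deficient enteroids, 3 members or 7.32%, beside 2.74% of all genes. Ugt2b38 alone among the members was called higher in Hdac2-deficient enteroids, 2.44% beside 2.89% of all genes. At any size, 10 members were higher in Hdac1-deficient enteroids and 18 in Hdac2-deficient enteroids, beside 22.3% and 23.7% of all genes. Their median log2 difference, Hdac1-deficient minus Hdac2-deficient, was -0.11, beside 0.00540 for all genes.

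**Figure D1:**
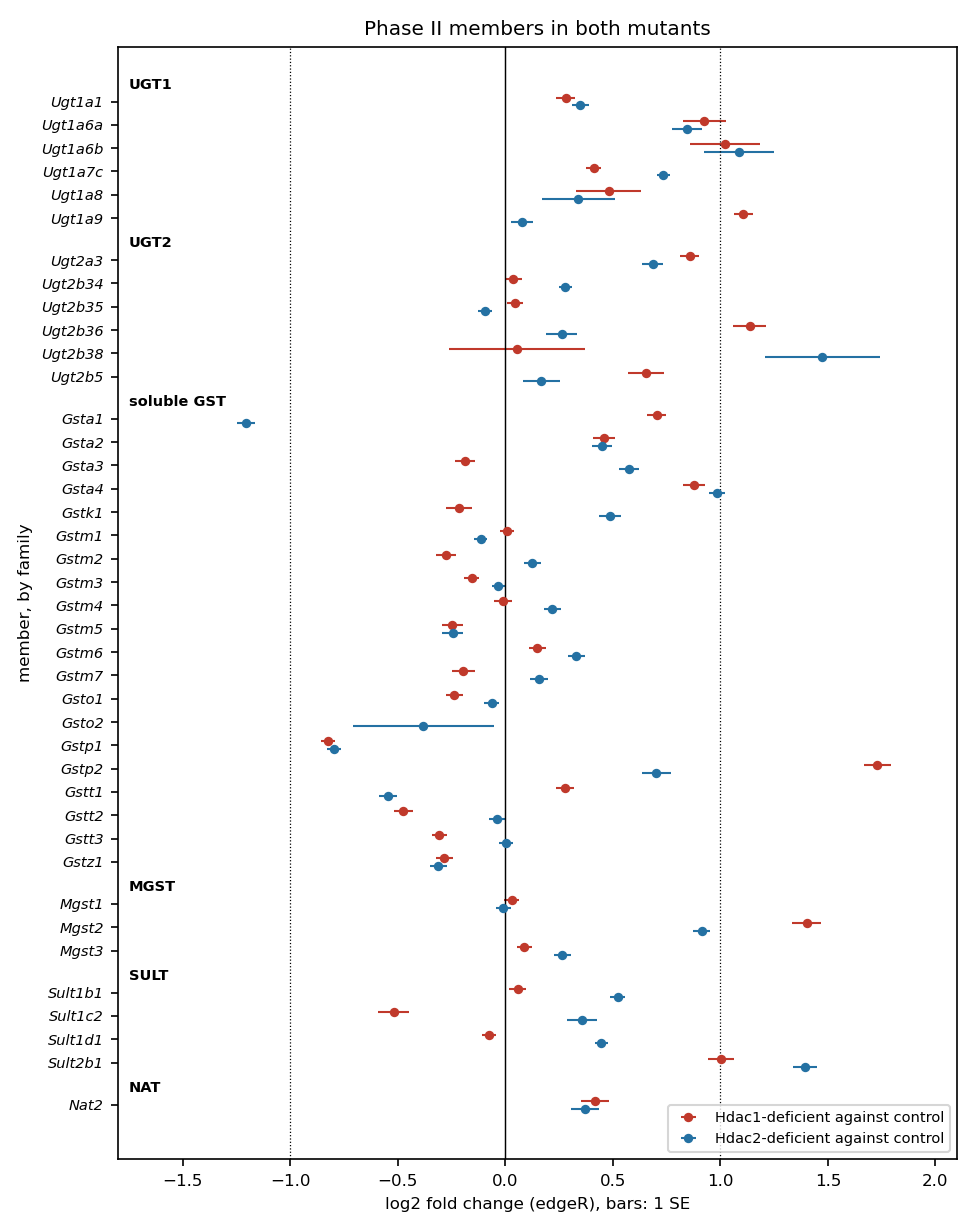
Log2 fold change of each tested phase II member in each mutant relative to control, with bars of 1 standard error, grouped by family. Values ran from -0.83 to 1.73 in Hdac1-deficient and from -1.21 to 1.47 in Hdac2-deficient enteroids, with Gstp2, Mgst2 and Ugt1a9 among the highest of the first and Gsta1 the lowest of the second.

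The families differed in total and in how that total moved. Summed over members, soluble GST transcripts were the most abundant at 3292 ± 110 CPM (SD, n = 4) in control, 3034 ± 85.5 in the Hdac1-deficient group and 3040 ± 54.8 in the Hdac2-deficient group. UGT2 transcripts summed to 1017 ± 17.2, 1140 ± 77.2 and 1192 ± 37.0 CPM in the same order. UGT1 transcripts summed to 274 ± 3.56, 385 ± 22.6 and 404 ± 18.5 CPM, log2 ratios of 0.49 and 0.56 to control. The sums of the 2 glucuronidating families were thus higher in each mutant. The soluble GST sum had log2 ratios of -0.12 and -0.11, which rested on Gstp1, a gene of chromosome 19 described below, since without it the ratios were 0.05 and 0.05. MGST transcripts summed to 536 ± 27.2 CPM in control, 660 ± 23.1 in the Hdac1-deficient group and 628 ± 24.9 in the Hdac2-deficient group. SULT transcripts stayed near the control level of 320 ± 10.9 CPM in Hdac1-deficient enteroids, at 324 ± 11.2 CPM, and reached 459 ± 14.95 CPM in Hdac2-deficient enteroids. NAT, which is Nat2 alone, was at 16.6 ± 1.18, 21.97 ± 1.58 and 21.3 ± 1.69 CPM. These sums were not tested, since 1 gene can make most of a sum. Ugt2b34 supplied 72.6% of the UGT2 sum in control, Ugt1a7c 55.1% of the UGT1 sum and Sult1d1 54.5% of the SULT sum, and without its highest member the UGT2 log2 ratio was 0.48 in the Hdac1-deficient group and 0.12 in the Hdac2-deficient group.

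**Figure D2:**
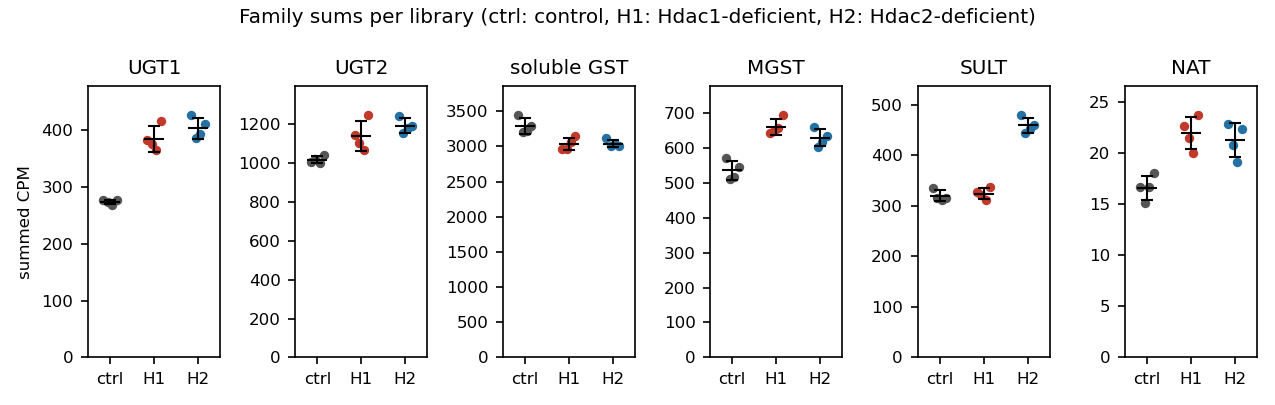
Summed CPM of the members of each family in every library, with the mean and SD of each group of 4 libraries. The SULT sum stands apart in the Hdac2-deficient libraries (445 to 480 CPM), while the control (312 to 336 CPM) and Hdac1-deficient libraries (311 to 337 CPM) overlap.

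The Ugt1a locus holds 9 members within 164.6 kb of chromosome 1 (GRCm38, 88055388 to 88220002, plus strand). Each has its own first exon and all share the remaining exons, so that enzymes with different substrates end alike. All 6 tested members were higher in Hdac1-deficient enteroids and 4 of them in Hdac2-deficient enteroids, where 32.7% and 31.4% of all genes were higher. Their median log2 fold changes were 0.70 and 0.54. None was lower in either. The genes share 1311 bases of exon or more with one another, 50.3% to 60.6% of their exon length, and how the deposited counts divided those reads is not stated, so the values of single Ugt1a genes are uncertain.

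Ugt1a9, whose human namesake conjugates bulky phenols and many drugs, lies at chr1:88070800-88218997. Its level was 33.9, 31.5, 32.2 and 32.6 CPM in control libraries 1 to 4. Hdac1-deficient libraries gave 71.5, 68.2, 65.0 and 73.5 CPM. Hdac2-deficient libraries gave 37.1, 31.1, 32.8 and 35.3 CPM. All Hdac1-deficient libraries lay above all others, and the Hdac2-deficient libraries overlapped the controls. Ugt1a9 rose 2.15-fold in Hdac1-deficient enteroids (log2 fold change 1.11 ± 0.05 SE, adjusted p = 3.7e-14). Its value in Hdac2-deficient enteroids was 0.08 ± 0.05 (adjusted p = 0.21). The direct difference was 1.03 ± 0.05 (adjusted p = 2.2e-15), and it fell below 2-fold without Hdac2-deficient library 2, at 0.99.

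Ugt1a6b, 1 of a pair of genes for the isoform that conjugates small planar phenols (chr1:88103252-88219003), was much rarer. Control libraries gave 1.94, 1.62, 1.78 and 1.97 CPM. In Hdac1-deficient libraries it was at 3.94, 3.04, 2.96 and 4.87 CPM, and in Hdac2-deficient libraries at 4.60, 3.09, 2.96 and 4.68 CPM. Both mutants lay wholly above the controls and overlapped each other. The log2 fold change was 1.02 ± 0.16 (adjusted p = 1.7e-05) in Hdac1-deficient and 1.09 ± 0.16 (adjusted p = 6.4e-06) in Hdac2-deficient enteroids, and the direct difference was -0.07 ± 0.17 (adjusted p = 0.77). These calls stood close to the 2-fold limit. In Hdac1-deficient enteroids the value was 0.97 without control library 2, 0.99 without Hdac1-deficient library 1 and 0.86 without Hdac1-deficient library 4, and in Hdac2-deficient enteroids it was 0.98 without Hdac2-deficient library 1 or 4.

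Its neighbour Ugt1a6a was also higher in both mutants, at 7.87 ± 0.355 CPM in control, 14.8 ± 2.61 in the Hdac1-deficient group and 14.1 ± 0.677 in the Hdac2-deficient group (SD, n = 4 each). The log2 fold changes were 0.93 ± 0.10 and 0.85 ± 0.07. Ugt1a7c, which held the most counts of the locus, was at 151 ± 1.09, 199 ± 9.65 and 249.9 ± 10.5 CPM. It was the higher in Hdac2-deficient enteroids (log2 difference -0.33, adjusted p = 1.2e-08). Of its 1915 exon bases not shared on its strand, 998 lie past the annotated ends of the other Ugt1a genes. Reads of those genes that run past their annotated ends could be counted to Ugt1a7c, and this was not tested. Ugt1a1, the bilirubin-conjugating enzyme, had log2 fold changes of 0.28 ± 0.04 (adjusted p = 1.4e-05) and 0.35 ± 0.04 (adjusted p = 1.2e-07). Ugt1a8 passed the test in Hdac1-deficient enteroids (0.48 ± 0.15, adjusted p = 0.0088), and its value in Hdac2-deficient enteroids was 0.34 ± 0.17 (adjusted p = 0.091). Gm20528, an antisense gene that overlaps the locus, was at 11.99, 15.6 and 13.7 CPM in control, Hdac1-deficient and Hdac2-deficient enteroids, and whether the counting used strand is not stated.

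The Ugt2 family holds 7 members within 534.4 kb of chromosome 5 (86889767 to 87424203), genes known for conjugating steroids, bile acids and fatty acids. In Hdac1-deficient enteroids 3 of 6 tested members were higher and none lower, and in Hdac2-deficient enteroids 4 of 6 were higher and 1 lower, beside the same shares of all genes. Ugt2b34 (chr5:86889767-86906937, minus strand) was the most abundant of all glucuronosyltransferases here. It was at 727.1, 746.5, 732.2 and 748.0 CPM in control, and at 750.7, 722.5, 710.0 and 821.0 CPM in Hdac1-deficient libraries. Hdac2-deficient libraries gave 917.4, 868.1, 894.7 and 880.0 CPM. The Hdac1-deficient libraries overlapped the controls and the Hdac2-deficient libraries lay above both groups. Ugt2b34 rose in Hdac2-deficient enteroids by a log2 fold change of 0.28 ± 0.03 (adjusted p = 3e-08), and its value in Hdac1-deficient enteroids was 0.04 ± 0.04 (adjusted p = 0.44). The direct difference was -0.25 ± 0.04 (adjusted p = 3.5e-06).

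Ugt2b36 (chr5:87065927-87092555, minus strand) had the reverse order of the mutants. Control libraries gave 40.6, 34.8, 35.5 and 39.4 CPM. Hdac1-deficient libraries gave 85.8, 75.2, 73.4 and 93.2 CPM. Hdac2-deficient libraries gave 50.5, 39.8, 41.7 and 46.5 CPM. Libraries 1 and 4 were the higher pair in every group, and the Hdac2-deficient libraries overlapped the controls. The log2 fold change was 1.14 ± 0.08 (adjusted p = 7.8e-08) in Hdac1-deficient and 0.26 ± 0.07 (adjusted p = 0.0075) in Hdac2-deficient enteroids, with a direct difference of 0.87 ± 0.10 (adjusted p = 1.4e-05).

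Ugt2b38 (chr5:87409942-87424203, minus strand) was scarce, with 7 to 35 counts per library. Control libraries gave 0.33, 0.25, 0.46 and 0.71 CPM. Hdac1-deficient libraries gave 0.41, 0.49, 0.39 and 0.47 CPM, and Hdac2-deficient libraries 1.29, 1.25, 1.11 and 1.08 CPM. All Hdac2-deficient libraries lay above all others, and the Hdac1-deficient libraries fell within the range of the controls. Ugt2b38 rose 2.78-fold in Hdac2-deficient enteroids (log2 fold change 1.47 ± 0.27, adjusted p = 6.8e-05) and its value in Hdac1-deficient enteroids was 0.05 ± 0.32 (adjusted p = 0.89). The direct difference was -1.42 ± 0.26 (adjusted p = 4.8e-05).

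Ugt2b5, the gene of the same cluster whose promoter window is closest to that of Ugt2b38 in the sequences shown above, moved in the other mutant. It was at 69.0 ± 5.77, 107.6 ± 12.2 and 76.6 ± 8.53 CPM in control, Hdac1-deficient and Hdac2-deficient enteroids (SD, n = 4 each). Its log2 fold change was 0.65 ± 0.08 (adjusted p = 7.1e-05) in Hdac1-deficient and 0.17 ± 0.09 (adjusted p = 0.12) in Hdac2-deficient enteroids. The transcripts of this pair share 434 windows of 100 bases, so some reads could belong to either. Of the counts of the pair, Ugt2b38 held 0.625% in control, 0.411% in the Hdac1-deficient group and 1.53% in the Hdac2-deficient group. Ugt2a3, which conjugates bile acids, was at 30.98 ± 0.202, 55.7 ± 2.71 and 49.4 ± 3.53 CPM and passed the test as higher in both mutants. Ugt2b35 was at 140.2 ± 4.88, 143.5 ± 6.41 and 130.2 ± 2.504 CPM, with log2 fold changes of 0.05 (adjusted p = 0.3) and -0.10 (adjusted p = 0.013).

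**Figure D3:**
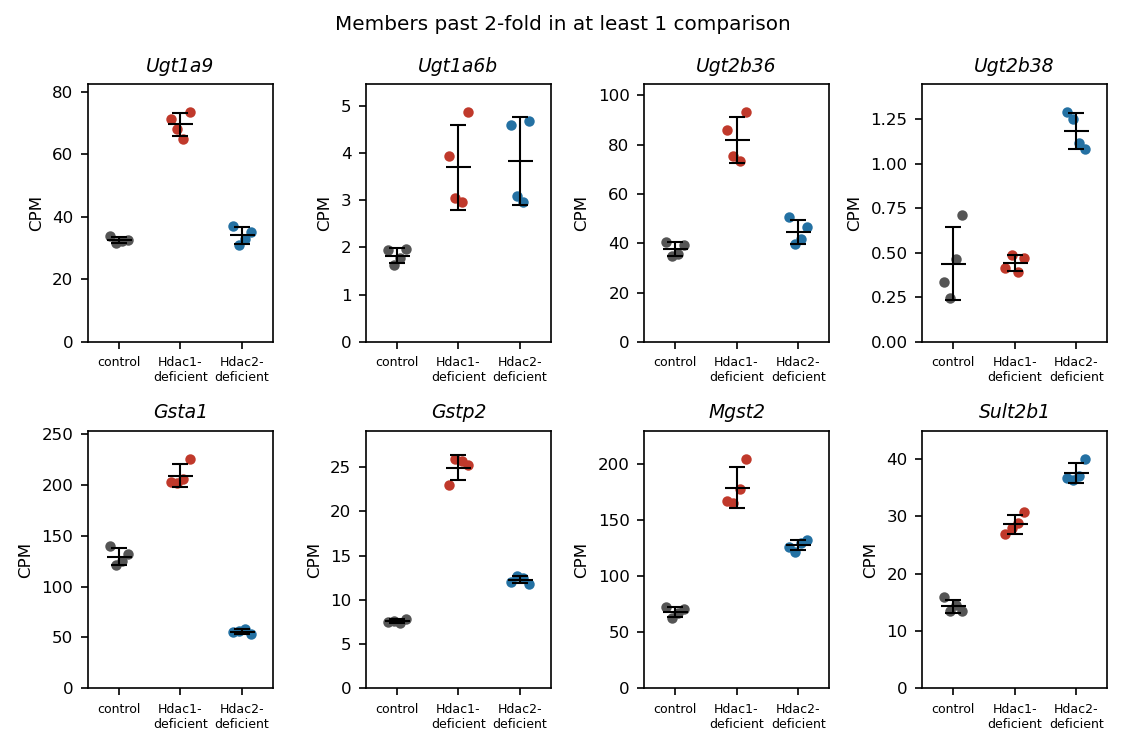
CPM of each member called in at least 1 comparison, in every library of the 3 groups. Each panel has its own axis, and a point is 1 library: Ugt1a9 and Ugt2b36 are highest in the Hdac1-deficient libraries (65.0 to 73.5 and 73.4 to 93.2 CPM), and Gsta1 is lowest in the Hdac2-deficient libraries (53.0 to 58.3 CPM).

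Among the soluble glutathione transferases, 6 of 19 tested members were higher and 11 lower in Hdac1-deficient enteroids, and 9 of 20 were higher and 6 lower in Hdac2-deficient enteroids. As shares these were 31.6% and 57.9%, beside 32.7% and 31.9% of all genes, and 45% and 30%, beside 31.4% and 30.9% of all genes, so that the share higher in the first and the share lower in the second were near those of all genes. Most of these changes were small, and median log2 fold changes were -0.19 and -0.02. The alpha class, which handles lipid peroxides and aldehydes, showed the widest split. Gsta1 (chr9:78230656-78242684, plus strand) was at 139.7, 121.1, 124.6 and 131.9 CPM in control libraries. Hdac1-deficient libraries gave 202.6, 201.5, 206.0 and 225.7 CPM, and Hdac2-deficient libraries gave 55.6, 55.9, 58.3 and 53.0 CPM. The 3 groups did not overlap, with Hdac1-deficient enteroids highest and Hdac2-deficient enteroids lowest. Gsta1 rose in Hdac1-deficient enteroids (log2 fold change 0.70 ± 0.04, adjusted p = 8.6e-11). It fell 2.31-fold in Hdac2-deficient enteroids (log2 fold change -1.21 ± 0.04, adjusted p = 1.7e-15). The direct difference of 1.91 ± 0.05 (3.75-fold, adjusted p = 1.2e-19) was the largest of any member.

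Of the 100-base windows of Gsta1 transcripts, 80.6% also occur in another gene, above all in Gm3776, which was not analysed here, so the level of Gsta1 alone is uncertain. Gm10639, a further gene of the same group, was at 10.9 ± 0.911, 11.4 ± 1.44 and 17.8 ± 1.55 CPM in control, Hdac1-deficient and Hdac2-deficient enteroids (SD, n = 4 each). Gsta2, beside Gsta1 on the chromosome, was at 30.3 ± 1.20, 41.3 ± 2.94 and 41.1 ± 2.24 CPM and rose in both mutants, by log2 fold changes of 0.46 ± 0.05 (adjusted p = 1.7e-07) and 0.45 ± 0.05 (adjusted p = 4.1e-08). The summed level of Gsta1 and Gsta2 was 159.6 ± 9.30, 250.2 ± 14.1 and 96.8 ± 2.42 CPM. Gsta2 supplied 18.998% of that sum in control, 16.5% in the Hdac1-deficient group and 42.4% in the Hdac2-deficient group.

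Gsta4, the alpha enzyme specialised for 4-hydroxyalkenals (chr9:78182774-78209349, plus strand), was raised in both mutants. Control libraries gave 236.3, 223.6, 216.7 and 228.8 CPM. Hdac1-deficient libraries gave 401.9, 379.0, 406.3 and 462.7 CPM, and Hdac2-deficient libraries 474.4, 441.8, 443.6 and 417.4 CPM. Both mutants lay above all controls and overlapped each other. The log2 fold change was 0.88 ± 0.05 (adjusted p = 2.3e-10) with Hdac1 deficiency. With Hdac2 deficiency it was 0.98 ± 0.04 (adjusted p = 3.4e-15), just short of 2-fold, and it passed 2-fold without control library 1 (1.00) or Hdac2-deficient library 4 (1.01). The direct difference was -0.11 ± 0.05 (adjusted p = 0.1). Gsta3, which detoxifies aflatoxin epoxide in mice, fell in Hdac1-deficient enteroids (log2 fold change -0.19 ± 0.05, adjusted p = 0.0013) and rose in Hdac2-deficient enteroids (0.57 ± 0.05, adjusted p = 6.8e-10), a direct difference of -0.77 ± 0.05 (adjusted p = 6.9e-13).

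The 7 mu-class genes stand within 149.1 kb of chromosome 3 (107895821 to 108044894), and none of them was called in any comparison. Of all genes, 2.74% to 6.87% were called in each direction of the comparisons, so none among 7 genes is near those shares. Gstm1, the main mu-class enzyme, was at 613.0, 567.3, 583.0 and 588.3 CPM in control and at 574.9, 575.6, 596.5 and 598.1 CPM in Hdac1-deficient libraries. Hdac2-deficient libraries gave 538.0, 526.6, 536.4 and 555.4 CPM. The Hdac1-deficient libraries overlapped the controls, and the Hdac2-deficient libraries lay below both groups. Its log2 fold change was 0.01 in Hdac1-deficient (adjusted p = 0.84) and -0.12 ± 0.03 in Hdac2-deficient enteroids (adjusted p = 0.002). The direct difference was 0.12 ± 0.03 (adjusted p = 0.002).

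Gstm3 was at 399.0, 386.4, 390.9 and 383.0 CPM in control and at 327.6, 349.0, 370.2 and 339.6 CPM in Hdac1-deficient libraries. Hdac2-deficient libraries gave 387.1, 366.7, 393.1 and 366.5 CPM. The Hdac1-deficient libraries lay below the controls and the Hdac2-deficient libraries overlapped them. Gstm3 fell in Hdac1-deficient enteroids (log2 fold change -0.16 ± 0.04, adjusted p = 0.00075), and its value in Hdac2-deficient enteroids was -0.03 (adjusted p = 0.34). Gstm2 and Gstm7 were lower in Hdac1-deficient enteroids (-0.28 and -0.20) and higher in Hdac2-deficient enteroids (0.13 and 0.16). Gstm5 was lower in both, by -0.25 in each, and Gstm6 higher in both, by 0.15 and 0.33. Gstm4 had values of -0.01 (adjusted p = 0.84) and 0.22 (adjusted p = 9.5e-05).

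The pi-class genes Gstp1 and Gstp2, adjacent copies on chromosome 19, moved in opposite directions in both mutants. Gstp1 (chr19:4035407-4037985, minus strand), the main pi-class enzyme, had the highest level per length of any member in control, 518 CPM per kb of exon. Its level was 833.4, 776.0, 777.6 and 818.3 CPM in control, 444.8, 445.3, 455.1 and 448.3 CPM in Hdac1-deficient and 481.0, 450.3, 450.8 and 452.1 CPM in Hdac2-deficient libraries. Both mutants lay far below the controls and overlapped each other. Gstp1 fell 1.77-fold in Hdac1-deficient (log2 fold change -0.83 ± 0.03, adjusted p = 2.6e-14) and 1.74-fold in Hdac2-deficient enteroids (-0.80 ± 0.03, adjusted p = 8.9e-15), with a direct difference of -0.03 ± 0.03 (adjusted p = 0.43).

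Gstp2 (chr19:4040285-4046023, minus strand) was at 7.54, 7.63, 7.40 and 7.85 CPM in control, 22.9, 26.0, 25.7 and 25.2 CPM in Hdac1-deficient and 12.05, 12.7, 12.5 and 11.8 CPM in Hdac2-deficient libraries. The groups did not overlap. Gstp2 rose 3.31-fold in Hdac1-deficient enteroids (log2 fold change 1.73 ± 0.06, adjusted p = 5.9e-15) and by 0.70 ± 0.07 in Hdac2-deficient enteroids (adjusted p = 1.3e-08), with a direct difference of 1.03 ± 0.06 (adjusted p = 6.2e-14). Of the 100-base windows of Gstp2 transcripts, 46.9% also occur in another gene, and 25.1% of those of Gstp1 occur in Gstp2, so reads could be divided between the pair. The pair summed to 809 ± 29.1, 473 ± 5.52 and 471 ± 14.8 CPM, of which Gstp2 was 0.941% in control, 5.27% in the Hdac1-deficient group and 2.61% in the Hdac2-deficient group.

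Chromosome 19 as a whole was lower in both mutants. The median log2 fold change of its other tested genes was -0.52 in each, over 506 genes in the Hdac1-deficient group and 494 in the Hdac2-deficient group, and 73.3% and 76.5% of them passed the test as lower. On the other chromosomes that hold members these medians were between -0.06 and 0.09. Relative to the chromosome 19 median, Gstp1 stood at -0.31 and -0.28, Gstp2 at 2.25 and 1.22, and Gsto1, described next, at 0.28 and 0.45. The part of this shift in the values of these genes was not tested.

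Gsto1, an omega-class enzyme that reduces dehydroascorbate (chr19:47854970-47864790, plus strand), was at 600.1, 539.9, 532.3 and 541.5 CPM in control and at 458.9, 462.1, 457.0 and 485.4 CPM in Hdac1-deficient libraries. Hdac2-deficient libraries gave 542.8, 521.2, 505.1 and 533.9 CPM and overlapped the controls, whereas the Hdac1-deficient libraries lay below both groups. Gsto1 fell in Hdac1-deficient enteroids (log2 fold change -0.24 ± 0.04, adjusted p = 1.8e-05), and its value in Hdac2-deficient enteroids was -0.06 ± 0.04 (adjusted p = 0.12). Gstt1, a theta-class enzyme for small halogenated compounds, was raised in Hdac1-deficient (0.28 ± 0.04, adjusted p = 7.7e-06) and lowered in Hdac2-deficient enteroids (-0.55 ± 0.04, adjusted p = 2.9e-10), a direct difference of 0.82 ± 0.04 (adjusted p = 7.5e-15). Gstk1, the kappa-class enzyme of mitochondria and peroxisomes, moved the other way, with values of -0.21 ± 0.06 (adjusted p = 0.0045) and 0.49 ± 0.05 (adjusted p = 7.3e-08) and a direct difference of -0.70 ± 0.06 (adjusted p = 1e-10). Gstz1, which isomerises maleylacetoacetate in tyrosine breakdown, fell in both, by -0.28 (adjusted p = 5.1e-06) and -0.31 (adjusted p = 5.8e-07). Gstt2 and Gstt3 fell in Hdac1-deficient enteroids (-0.47 and -0.31) and had values of -0.04 (adjusted p = 0.4) and 0.00 (adjusted p = 0.97) in Hdac2-deficient enteroids.

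**Figure D4:**
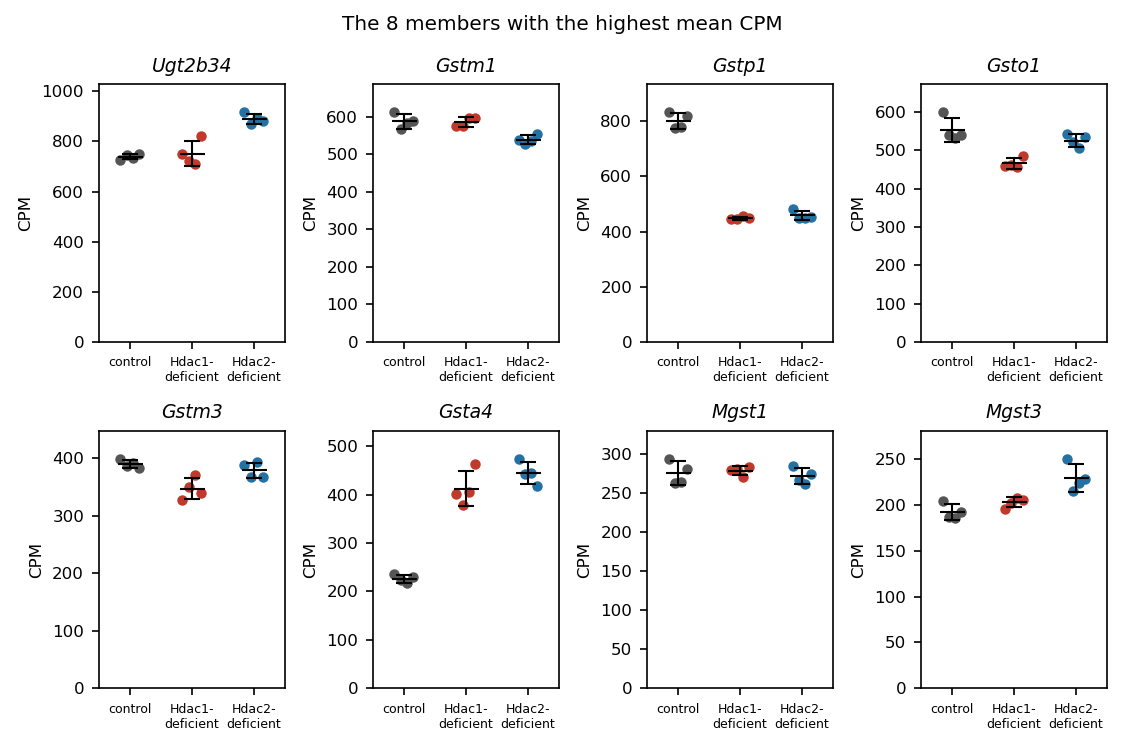
CPM of the 8 members with the highest mean over the 12 libraries, 1 point for each library. Gstp1 falls from 776 to 833 CPM in control to 445 to 481 CPM in the mutants, while Mgst1 stays between 262 and 294 CPM in all 12 libraries.

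Of the microsomal transferases, membrane proteins that also act on lipid peroxides and leukotrienes, Mgst2 changed most. Mgst2 (chr3:51660360-51682677, plus strand), which can form leukotriene C4, was at 72.3, 62.7, 67.5 and 70.5 CPM in control, 167.1, 165.5, 177.8 and 205.1 CPM in Hdac1-deficient and 126.2, 121.9, 130.1 and 132.3 CPM in Hdac2-deficient libraries. The 3 groups did not overlap. It rose 2.64-fold in Hdac1-deficient enteroids (log2 fold change 1.40 ± 0.07, adjusted p = 1.7e-09) and 1.88-fold in Hdac2-deficient enteroids (0.91 ± 0.04, adjusted p = 3.7e-14), and the direct difference was 0.49 ± 0.06 (adjusted p = 1.6e-05).

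Mgst1 (chr6:138140316-138156755, plus strand), the abundant member of the family, was at 293.8, 262.2, 263.6 and 281.1 CPM in control, 279.4, 280.7, 270.6 and 282.8 CPM in Hdac1-deficient and 283.9, 265.8, 261.9 and 273.9 CPM in Hdac2-deficient libraries. All groups overlapped, and its log2 fold changes were 0.03 ± 0.04 (adjusted p = 0.51) and -0.01 ± 0.04 (adjusted p = 0.83). Mgst3 (chr1:167371966-167393841, minus strand) was at 204.6, 187.0, 185.3 and 191.9 CPM in control and at 195.6, 201.7, 207.9 and 205.5 CPM in Hdac1-deficient libraries. Its Hdac2-deficient libraries gave 250.4, 215.5, 223.7 and 228.0 CPM and lay above the other groups, which overlapped. Mgst3 rose in Hdac2-deficient enteroids by 0.27 ± 0.04 (adjusted p = 2.4e-05). In Hdac1-deficient enteroids it passed the test narrowly (0.09 ± 0.04, adjusted p = 0.033), and it did not pass with DESeq2 (0.09), with the replicate block (0.09), with no filter on low counts or all 12 libraries in 1 fit (0.08 each), or without control library 2, 3 or 4 (0.07, 0.07 and 0.08) or Hdac1-deficient library 2, 3 or 4 (0.09, 0.08 and 0.08).

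Among the sulfotransferases, 1 of 4 tested members was higher and 1 lower in Hdac1-deficient enteroids, beside 32.7% and 31.9% of all genes. All 4 were higher in Hdac2-deficient enteroids, where 31.4% of all genes were higher. Tested directly, all 4 were higher in Hdac2-deficient enteroids, beside 23.7% of all genes. The median log2 difference was -0.50, Hdac1-deficient minus Hdac2-deficient. Sult2b1 (chr7:45729983-45784669, minus strand), which sulphates cholesterol and pregnenolone, was at 15.8, 13.5, 14.6 and 13.4 CPM in control and at 26.9, 28.0, 28.9 and 30.7 CPM in Hdac1-deficient libraries. Hdac2-deficient libraries gave 36.7, 36.4, 37.0 and 40.1 CPM. The groups did not overlap and rose in that order. Of the exon bases of Sult2b1, 8.1% overlap genes of the opposite strand. The log2 fold change was 1.00 ± 0.06 (adjusted p = 1.7e-11) in Hdac1-deficient and 1.39 ± 0.06 (adjusted p = 8.9e-15) in Hdac2-deficient enteroids, with a direct difference of -0.39 ± 0.05 (adjusted p = 8.5e-07). The first of these stood at the 2-fold limit and fell to 0.97 without control library 2, control library 4 or Hdac1-deficient library 4, and to 0.99 with no filter on low counts or with all 12 libraries in 1 fit.

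Sult1d1, which sulphates catecholamines, was the most abundant sulfotransferase at 174.3 ± 5.76, 164.0 ± 4.73 and 236.1 ± 8.69 CPM in control, Hdac1-deficient and Hdac2-deficient enteroids (SD, n = 4 each). It rose in Hdac2-deficient enteroids by 0.45 ± 0.03 (adjusted p = 9.7e-11), and its value in Hdac1-deficient enteroids was -0.08 ± 0.03 (adjusted p = 0.052). Sult1b1, which sulphates phenols and thyroid hormones, was at 119.5 ± 5.07, 123.3 ± 5.90 and 170.5 ± 6.85 CPM, with log2 fold changes of 0.06 (adjusted p = 0.21) and 0.52 ± 0.04 (adjusted p = 3.5e-11). Sult1c2 fell in Hdac1-deficient enteroids (-0.52 ± 0.07, adjusted p = 3.2e-06) and rose in Hdac2-deficient enteroids (0.36 ± 0.07, adjusted p = 0.00015). The 8 goblet markers looked at summed to 1599 to 1849 CPM in control, 1777 to 1898 CPM in the Hdac1-deficient group and 2737 to 2971 CPM in the Hdac2-deficient group. Fcgbp made the largest part of that sum, at 946 CPM in control, 811 in Hdac1-deficient libraries and 1358 in Hdac2-deficient libraries, while Muc2, the main gel-forming mucin, was at 42.2, 83.1 and 82.9 CPM. The part of these markers in the sulfotransferase values was not tested. Nat2, which acetylates arylamines, rose in both mutants by 0.42 ± 0.06 (adjusted p = 1e-05) and 0.37 ± 0.07 (adjusted p = 3.9e-05).

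The remaining members were near the detection floor. Gsto2 had 6 to 20 counts per library in control, 4 to 9 in Hdac1-deficient and 9 to 10 in Hdac2-deficient enteroids, and Ugt2b1 had 3 to 4, 3 to 11 and 6 to 12. Sult4a1, a sulfotransferase known from brain, had 0 to 1, 2 to 4 and 4 to 8 counts. Ugt1a10 and Ugt1a2 had at most 4 counts in control libraries and at most 6 in the mutants. Sult1a1 and Ugt1a5 were listed only beside the Hdac1-deficient libraries, with at most 7 counts. No fold is given in the text for these members.

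The donors of the reactions and the carriers of the products were looked at through fixed lists, chosen like the members with earlier results of these data known. Each count below stands beside the shares of all genes that passed the test, 32.7% higher and 31.9% lower in Hdac1-deficient enteroids and 31.4% higher and 30.9% lower in Hdac2-deficient enteroids, and with so few genes a list near those shares says nothing particular about it. Of 3 genes of UDP-glucuronate supply, Ugdh, which makes the donor, was higher in both mutants (log2 fold changes 0.43, adjusted p = 2.1e-07, and 0.46, adjusted p = 8.6e-11), and the other 2 were lower in both. Of 7 tested genes of PAPS and sulphate supply, 5 were higher and 1 lower in Hdac1-deficient enteroids, and 4 higher and 3 lower in Hdac2-deficient enteroids. Slc26a2, a sulphate transporter, was called higher in both, at 58.3 CPM in control, 122 in the Hdac1-deficient group and 169.9 in the Hdac2-deficient group (1.07 ± 0.05, adjusted p = 6.3e-12, and 1.55 ± 0.03, adjusted p = 2.1e-19). Papss2, which makes PAPS, had log2 fold changes of 0.76 and 0.80. The summed level of this list was 1358 to 1426 CPM in control, 1889 to 2102 CPM in the Hdac1-deficient group and 1981 to 2163 CPM in the Hdac2-deficient group.

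Of 10 genes of glutathione synthesis and of the mercapturate steps that follow conjugation, 5 were higher and 5 lower in Hdac1-deficient enteroids, and 8 higher and 2 lower in Hdac2-deficient enteroids. Ggt1, which removes glutamate from glutathione conjugates, was called higher in both (1.39, adjusted p = 2.8e-17, and 1.45, adjusted p = 7.2e-19). Dpep1, the dipeptidase of the next step, was called higher in Hdac1-deficient enteroids (1.28, adjusted p = 6.8e-16) and rose by 0.81 in Hdac2-deficient enteroids. Slc7a11, the cystine carrier that feeds glutathione synthesis, fell in Hdac1-deficient enteroids and rose in Hdac2-deficient enteroids (-1.67, adjusted p = 7e-10, and 0.52, adjusted p = 0.0068), at 22.4 CPM in control, 6.99 in the Hdac1-deficient group and 31.9 in the Hdac2-deficient group. The direct difference for Slc7a11 was -2.19 (adjusted p = 4.1e-09), and the gene is also in the list of readouts below.

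Of 8 carriers that export conjugates, 3 were higher and 3 lower in Hdac1-deficient enteroids, and 4 higher and 2 lower in Hdac2-deficient enteroids, close to the shares of all genes in the first. Abcc2, the apical pump for glucuronide and glutathione conjugates, fell in both, from 321 CPM in control to 219 CPM in Hdac1-deficient (-0.54, adjusted p = 0.00014) and 134 CPM in Hdac2-deficient enteroids (-1.25, adjusted p = 3e-11). Genes of all these lists, Abcc2 included, were not set against the median of their own chromosome. That median was -0.52 in both mutants for chromosome 19, and its part in the values of list genes was not tested. Abcb1b, a drug efflux pump at 0.265 CPM in control, was called higher in both (2.34, adjusted p = 1.7e-06, and 1.57, adjusted p = 0.00042). Of the 3 tested deconjugating genes, none was higher and 2 lower in Hdac1-deficient enteroids, and 2 were higher and none lower in Hdac2-deficient enteroids. Other conjugation routes, by methyl transfer or amino acids, had 4 of 7 tested genes higher and 1 lower in Hdac1-deficient enteroids, and 5 of 6 higher and 1 lower in Hdac2-deficient enteroids. Slc27a5 (2.40 and 2.51) and Glyat (1.93 and 1.83) were called in both and Baat (2.16) in Hdac1-deficient enteroids, all at or below 1.22 CPM on average in any group, while Acsm3 was called in Hdac2-deficient enteroids (1.06, adjusted p = 1.1e-11). Tested directly, Baat was higher in Hdac1-deficient enteroids (1.07, adjusted p = 0.0019).

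Of 20 regulators of phase II genes, 12 were higher and 4 lower in Hdac1-deficient enteroids, and 13 higher and 2 lower in Hdac2-deficient enteroids, none of them beyond 2-fold. Nfe2l2 was higher in both (0.44, adjusted p = 3.8e-10, and 0.58, adjusted p = 2.5e-13), as were Ahr (0.20, adjusted p = 0.0035, and 0.31, adjusted p = 1.5e-05) and Nr1i2 (0.32, adjusted p = 1.8e-06, and 0.27, adjusted p = 6.5e-07). Nr1i3 (0.36 and 0.36), Ppara (0.37 and 0.34) and Hnf4a (0.09 and 0.17) also passed the test in both. Of 8 tested readout genes of AHR and NRF2, 3 were higher and 3 lower in Hdac1-deficient enteroids, and 5 higher and none lower in Hdac2-deficient enteroids. Cyp1a1, the classical AHR target, was called higher in both at low level, 0.602 CPM in control, 1.81 in the Hdac1-deficient group and 1.90 in the Hdac2-deficient group (1.59, adjusted p = 3.7e-07, and 1.65, adjusted p = 4.2e-07). Hmox1, a target of NRF2, had a value of -0.27 (adjusted p = 0.06) in Hdac1-deficient enteroids and was called higher in Hdac2-deficient enteroids (1.15, adjusted p = 3e-10), with a direct difference of -1.41 (adjusted p = 2.7e-10).

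**Figure D5:**
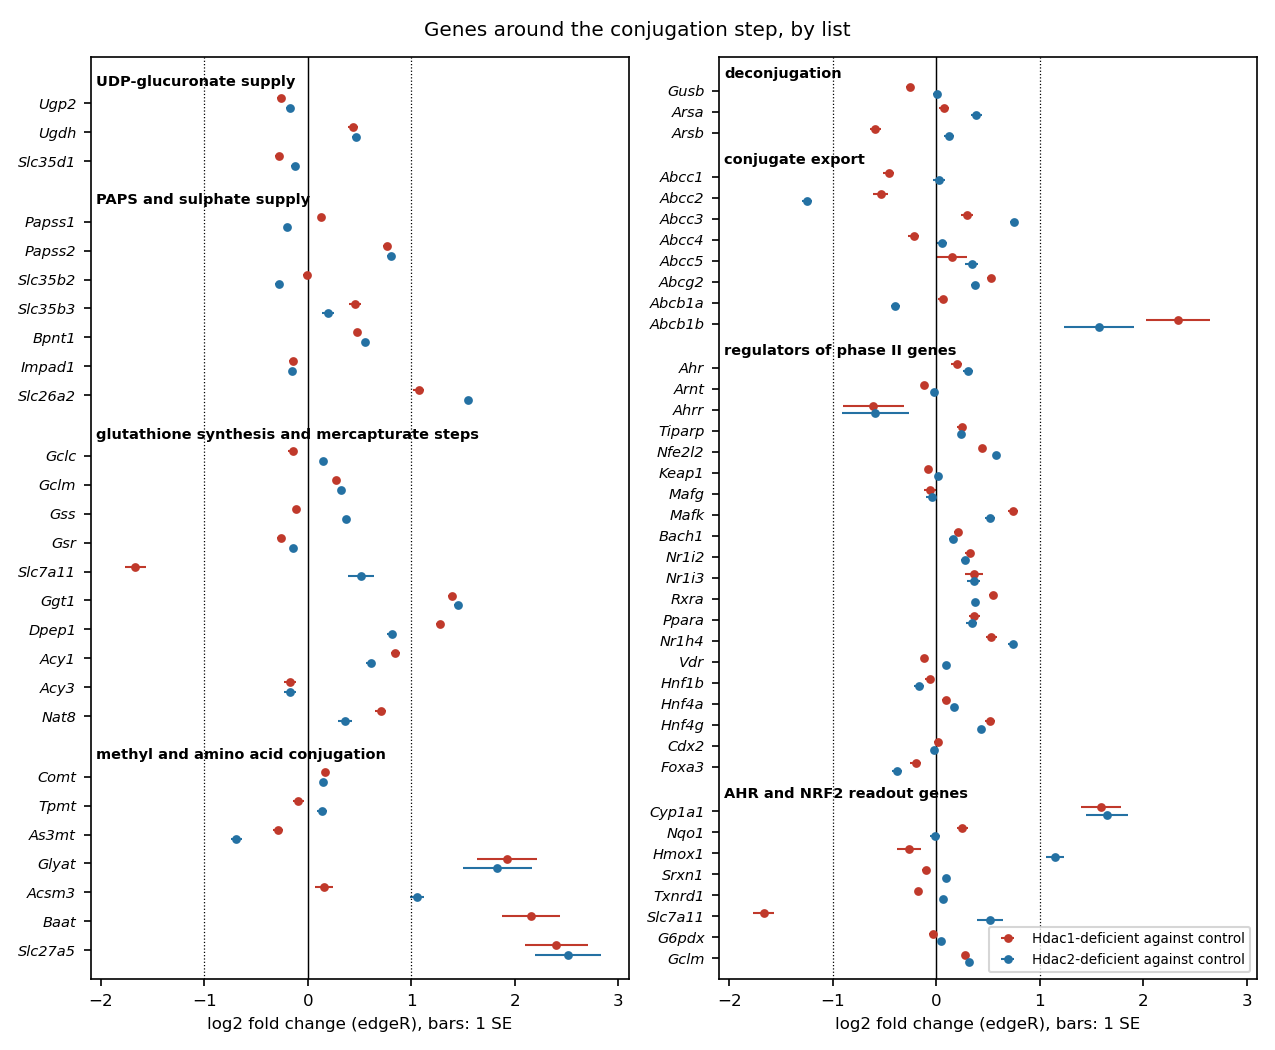
Log2 fold changes against control of the genes of donor supply, mercapturate steps, other conjugation routes, deconjugation, export, regulators and readouts, in both mutants. Slc7a11 is the one gene far below 0 in Hdac1-deficient (-1.67) and above 0 in Hdac2-deficient enteroids (0.52), and Abcc2 is the lowest in the Hdac2-deficient enteroids (-1.25).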

How the data were processed

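RNA-seq was done by the study on poly(A) RNA of 12 enteroid samples with directional libraries and paired reads. Per the submitters' processing notes, bcl2fastq 1.8.4 and STAR 2.4.0f1 were used, and the counting program and its strand setting are not given in the sources used here. The authors deposited raw counts per gene in 2 tables, 1 for each mutant, with the same 4 control libraries. Genes summing below 10 counts were absent from each table. Columns with the authors' own comparisons, and 16 columns of normalised values, were not used.

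Counts were tested with edgeR 4.0.16 in R 4.3.3 (filterByExpr, TMM, robust quasi-likelihood F test, Benjamini-Hochberg adjustment over all genes tested). Each mutant was tested against control in its own table, and the mutants against each other in the 17972 genes of both tables. Genes with an adjusted p at most 0.05 and a fold above 2 were called. Levels are CPM after TMM scaling, as mean ± SD, and errors of log2 fold changes are standard errors. Alternatives were DESeq2 1.42.0, other scalings and filters, 1 fit of all libraries, a replicate block and leaving out each library. The fits were tested on simulated data.

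Library sizes were 20693200 to 30658628 counts. No pair of replicates agreed within sampling noise (chi-square per gene 1.52 to 8.18, where sampling alone gives 1). Over all genes that passed the filter, same-numbered libraries did not deviate together (correlations of -0.045 to 0.091 over 12 pairs), so numbers were not taken to pair libraries. Single members, among them Ugt2b36, Ugt2b5 and Ugt1a6b, did have the same libraries highest in every group, which such correlations cannot exclude. The replicate block is among the alternatives. The detection floor covers counting error only.

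Members and lists were chosen with earlier results of these data known. A member is given with its value in every library when called in at least 1 comparison or when among the 8 with the highest mean CPM, others by fold changes, ranges and counts, and of each list up to 3 called genes per comparison and 6 fixed regulators. A further regulator and a promoter motif are not reported here. Coordinates and shared exons come from GENCODE M21 (GRCm38), and a window of 100 bases counted as shared when it occurred unchanged in a transcript of another gene.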

Additional observations from a re-analysis of the deposited data

Results flagged for a closer look

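Of 48 groups of 4 libraries looked at (the 16 members given by library, in 3 groups), 3 held a library farther from its group than Dixon's 95% limit, and chance gives about 1 in 20. Gsto1 was at 600.1 CPM in control library 1, where the other control libraries lay between 532 and 541 CPM. Gstp1 was at 481.0 CPM in Hdac2-deficient library 1, where the others lay between 450.3 and 452.1 CPM. Sult2b1 was at 40.1 CPM in Hdac2-deficient library 4, where the others lay between 36.4 and 37.0 CPM.

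The 2 mutants differed from each other beyond 2-fold at 4 members, tested directly with edgeR. Gsta1, raised in Hdac1-deficient and lowered in Hdac2-deficient enteroids, had a log2 difference of 1.91. Gstp2 differed by 1.03, with a rise in both mutants that was the greater in Hdac1-deficient enteroids. Ugt1a9 differed by 1.03, with Hdac2-deficient libraries within reach of the controls. Ugt2b38 differed by -1.42, on 7 to 35 counts per library. All 4 Hdac1-deficient libraries lay outside the range of the Hdac2-deficient libraries at each of these genes. The genes were picked by their difference between these same libraries, so the separation is no further support. Members that were not called, such as Gsta3, Gstk1 and Gstt1, were separated too, while others, such as Gsta4, overlapped. The share of all genes separated in this way is not given.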

How the results depend on the processing

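Among Hdac1-deficient enteroids, 6 members were called higher and the count was 4 to 6 when a library was left out (4 without control library 2 or Hdac1-deficient library 4), 7 with no filter on low counts (Sult4a1 and Ugt2b1 gained, Sult2b1 lost), 6 with all 12 libraries in 1 fit (Ugt2b1 gained, Sult2b1 lost) and 19 with no limit on fold. No member was called lower, but 1 was, Gsto2, with no filter on low counts, with a mean count of at least 10, with DESeq2 and with all 12 libraries in 1 fit, 0 to 1 when a library was left out, and 12 with no limit on fold. Among Hdac2-deficient enteroids, 3 members were called higher, and 5 with no filter or DESeq2 (Sult4a1 and Ugt2b1 were added), 2 to 5 when a library was left out (2 without Hdac2-deficient library 1, 5 without control library 1) and 24 with no limit on fold. 1 member was called lower, 1 to 1 when a library was left out and 7 with no limit on fold. Between the mutants, 3 members were higher in Hdac1-deficient enteroids (2 to 3 when a library was left out, 10 with no limit on fold) and 1 in Hdac2-deficient enteroids (1 to 1, and 18). With the replicate block the 6 counts were 6, 0, 3, 1, 3 and 1, as without it, and Mgst3 in Hdac1-deficient enteroids (0.09) then missed the threshold and Gsto1 in Hdac2-deficient enteroids (-0.06) passed it. Log2 ratios of family sums without the highest member, in Hdac1-deficient and Hdac2-deficient enteroids, were 0.55 and 0.45 for MGST, 0.14 and 0.62 for SULT, 0.59 and 0.32 for UGT1, and 0.48 and 0.12 for UGT2. The soluble GST ratios without Gstp1, an alternative chosen after seeing the data, were 0.054 and 0.052. That sum is undefined for NAT, which has 1 member. Values near 0 changed sign. Gstm1 in Hdac1-deficient enteroids was -0.00202 with no filter, -0.00392 with all libraries in 1 fit and -0.0098 to 0.026 when a library was left out, lowest without control library 2. Ugt2b34 there was -0.0073 to 0.063, lowest without Hdac1-deficient library 4, and Ugt2b38 was -0.0562 and -0.14 without control library 1 or 2, with a range of -0.14 to 0.34 over all libraries left out. Mgst1 in Hdac2-deficient enteroids was 0.020 without control library 1 and 0.00762 without Hdac2-deficient library 3, from -0.033 over all libraries left out. Ugt1a6b between the mutants was 0.024, 0.027, 0.038 and 0.035 without Hdac1-deficient library 2 or 3 or Hdac2-deficient library 1 or 4, and reached -0.23 without Hdac1-deficient library 4. Of 336 values of single members under alternatives other than leaving out a library, 328 kept their direction and their side of the adjusted p of 0.05, as did 430 of 448 with a library left out. The 2-fold limit is not part of that tally, and 11 values with a library left out and 2 under other alternatives, all of Sult2b1, Ugt1a6b, Gsta4 or Ugt1a9, crossed it. The cause of these changes was not tested. Depth limits Ugt2b38, Ugt1a6b and the members below the filter.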

Other observations

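Markers of the secretory lineages also moved, counted here beside the 32.7% of all genes higher in Hdac1-deficient and the 31.4% higher in Hdac2-deficient enteroids. Of 8 goblet markers, 4 were higher and 1 lower in Hdac1-deficient enteroids, and 7 higher and none lower in Hdac2-deficient enteroids. Of 6 tested Paneth markers, 2 were higher and 1 lower in Hdac1-deficient enteroids, and 5 higher and none lower in Hdac2-deficient enteroids, with summed levels of 2121 to 2482 CPM in control, 3105 to 3369 CPM in the Hdac1-deficient group and 3383 to 3530 CPM in the Hdac2-deficient group. Of 10 enteroendocrine markers, 8 were higher and 1 lower, and 7 higher and 2 lower, in the same order. Tuft markers summed to 5.92 to 7.03 CPM in control, 5.67 to 7.91 CPM in the Hdac1-deficient group and 3.98 to 4.45 CPM in the Hdac2-deficient group.

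Markers of cells outside the epithelium were low in all groups. Stromal markers summed to 3.48 to 4.70, 3.97 to 5.57 and 4.18 to 5.16 CPM, and endothelial markers to 1.39 to 1.88, 1.05 to 1.53 and 1.43 to 1.75 CPM. Immune markers summed to 2.14 to 2.68, 3.34 to 4.58 and 4.29 to 5.12 CPM. The immune list holds Lyz2, which is also in the list of Paneth markers, so its sum may include RNA of the epithelium. Hepatocyte markers, a list chosen because liver is the best known site of these enzymes, summed to 3.30 to 4.82, 7.20 to 8.58 and 8.67 to 9.14 CPM, and all 3 tested were higher in both mutants. The part of these levels in the values of the members was not tested.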
